A study of Mus musculus with 3 samples.

Results

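The 10 genes described here encode proteins of neutrophil granules, and were taken by name from a list out of the 31053 gene symbols of the files. They are Elane, Mpo and Prtn3 of primary (azurophil) granules, Ltf, Camp, Ngp, Lcn2 and Cd177 of specific granules, and Wfdc21 and Retnlg, listed here as late genes. Their RNA was read in gated cells, which are cells with a molecule of at least 3 of the 6 genes Csf3r, Cxcr2, Il1r2, Retnlg, G0s2 and Hdc, against all other cells. The gate held 325 of the 5650 cells that the authors kept. Retnlg belongs to the gate as well as to the list, so its level by this gate is a description with no test.

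The cells came from whole neuroblastomas of 3 TH-MYCN mice, 1 tumor a mouse, all in a single group and without treatment groups. Each mouse carried 1 copy of the transgene, in which the tyrosine hydroxylase promoter drives MYCN in cells of the neural crest lineage. Tumors 1, 2 and 3 were collected at 62, 79 and 63 days of age, digested and run as droplet libraries read from the 3′ end. Such libraries count each captured molecule once by its unique molecular identifier (UMI), so no scaling by gene length was applied.

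Neutrophils fill their granules in the order in which they mature in the marrow. Promyelocytes make the proteases and the peroxidase of primary granules, myelocytes and metamyelocytes make the proteins of specific granules, and gelatinase granules follow as the nucleus segments. Transcripts of the early granule proteins fade before the cell enters the blood, whereas the proteins stay stored, so a mature neutrophil in tissue holds elastase with little of its messenger RNA.

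The gate took 254 of 1914 kept cells in tumor 1 (13.3%), 52 of 1221 in tumor 2 (4.26%) and 19 of 2515 in tumor 3 (0.755%). Tumor 1 thus supplied most gated cells, and tumor 3 very few. Summed depth in the gate was 970878, 126031 and 39471 UMIs for tumors 1, 2 and 3, against 11657285, 2614506 and 5175930 UMIs in the other kept cells. The median gated cell had 2696.5, 2231.5 and 2082 UMIs, and the median other cell 4834.5, 1581 and 1812. Gated cells were therefore the shallower of the pair in tumor 1 and the deeper in tumors 2 and 3. At the edge of the gate, 92 kept cells had 2 of the 6 genes and 39 had exactly 3. Tumors 1 and 2 shared 3 kept cell barcodes, tumors 1 and 3 shared 0, and tumors 2 and 3 shared 1.

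Neutrophil markers that the gate did not use were higher in gated than in other cells of every tumor. S100a8, a calcium-binding protein of the neutrophil cytosol, stood at 40533, 53209 and 15024 CPM (UMIs scaled to a library sum of 1e6) in gated cells of tumors 1, 2 and 3, against 27.8, 209 and 9.27 CPM in other cells. S100a9, its partner protein, stood at 56396, 71308 and 26044 CPM against 33.5, 236 and 18.4 CPM. Ly6g, a surface antigen of mouse neutrophils, was at 105, 262 and 76.0 CPM against 0.343, 0 and 0 CPM, where the counts of 0 allow up to 1.15 and 0.580 CPM. It was found in 38 of 325 gated cells, and its value in tumor 3 rests on 3 UMIs in 2 cells. Gated sums lay above all sums of other cells for each of the 3 genes, as held for 7.01% of all genes tested. By these levels the gate held cells with neutrophil markers in each tumor. Markers of other types were present too. In tumor 1 the 8 fibroblast markers summed to 3253 CPM in gated and 3601 CPM in other cells, with Col3a1 the most abundant at 1060 and 1081 CPM. In tumors 2 and 3, where the gate held 0 UMIs of Col3a1, they summed to 31.7 and 101 CPM against 1221 and 514 CPM. The 8 macrophage markers summed to 471, 79.3 and 203 CPM in the gate against 2196, 1058 and 849 CPM outside it, with Csf1r the most abundant in the gate at 144, 63.5 and 177 CPM. The 8 tumor cell markers summed to 61.8, 793 and 1039 CPM in the gate against 142, 1436 and 1725 CPM outside it, with Stmn2 the most abundant in the gate at 44.3, 333 and 507 CPM. They were thus the largest of these sums in the gate of tumors 2 and 3, and 9 gated cells met the tumor-marker rule, against 12 for macrophages, 6 for fibroblasts and 4 for endothelial cells, the last 3 all in tumor 1. The 8 cell cycle genes summed to 83.4, 857 and 1115 CPM in the gate against 285, 1413 and 1669 CPM. No marker of these lists was at 0 over all gated cells, and the part of any of these cell types in the results below was not tested.

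Primary granule genes were close to absent in gated cells. All 3 kept cells with at least 10 primary UMIs had only 1 gate gene and lay outside the gate. The low level is thus that of gated cells only. Elane, neutrophil elastase, gave 1 UMI in tumor 1 (1.03 CPM) and 0 UMIs in tumors 2 and 3, which allow up to 23.8 and 76.0 CPM. Mpo, the peroxidase that makes hypochlorous acid, gave 4 UMIs in 4 cells of tumor 1 (4.12 CPM) and 0 in tumors 2 and 3. Prtn3, proteinase 3, gave 4 UMIs in 3 cells of tumor 1 (4.12 CPM) and again 0 in tumors 2 and 3. All 9 primary UMIs of the gate thus lay in tumor 1, and at the depth of tumors 2 and 3 levels like those of tumor 1 were not detectable. In other cells Elane was at 21.8, 0.765 and 0 CPM, where the 0 allows up to 0.580 CPM. Mpo was at 18.9, 0.382 and 0 CPM in other cells, with the same limit for its 0. Prtn3 was at 8.24, 11.5 and 5.22 CPM there. Sums of gated and other cells overlapped for Elane and Mpo. For Prtn3 every gated sum was below every sum of other cells, yet the limits of tumors 2 and 3 lie above them, so no difference was detectable. As a share of cells of tumor 1, Mpo had a UMI in 1.57% of gated cells and in 2.42% of B cell-marker cells, a type that should lack it, at median depths of 2696.5 and 4390 UMIs. After thinning each cell to 500 UMIs these shares were 0% and 0.483%, so the gated share was at the level of background.

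Most Elane and Mpo UMIs of the tumors sat in a single cell outside the gate, and cells rich in granule UMIs were singled out after their values were seen. One unnamed cell of tumor 1 with 36918 UMIs held 250 Elane, 180 Mpo and 57 Prtn3 UMIs, and its Elane made up 98.4% of the Elane UMIs of other cells in that tumor. It also held 78 UMIs of Ctsg, cathepsin G, 41 of Ms4a3, a gene of granulocyte-monocyte progenitors, and 39 of Cebpe, a transcription factor of granule formation. Ltf, Camp, Ngp, Lcn2, Cd177, Wfdc21 and Retnlg were all at 0 in it. The same barcode carried 38 UMIs of Myb, 21 of the mast cell protease Cpa3, 10 of the eosinophil protein Prg2 and 20 of Hdc, and met 5 of 8 progenitor and 5 of 8 basophil or mast cell markers. Whether it was 1 cell or several was not tested. A progenitor-marker cell of tumor 1 held 17 UMIs of Mpo, 2 of Prtn3, 13 of Ctsg and 0 of Elane.

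A cell of tumor 2, also outside the gate, carried early and specific granule RNA together. Among its 4772 UMIs were 19 of Prtn3 and 2 of Elane beside 317 of Camp, 143 of Ngp, 90 of Lcn2, 36 of Wfdc21 and 6 of Ltf, with 0 of Retnlg. It further held 14 UMIs of Fcnb, a ficolin of immature neutrophils, 6 of Cebpe and 8 of Top2a, a topoisomerase of dividing cells. In all, 5 of 8 cell cycle genes were detected in it. This was the only kept cell to hold at least 10 UMIs of the primary genes and at least 10 of Ltf, Camp and Ngp. It supplied 98.1% of the Camp UMIs of other cells in tumor 2.

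Prtn3 was spread more thinly than Elane or Mpo outside the gate. In tumor 3 its 27 UMIs outside the gate came from 27 cells, none with more than 1. Of these, 11 were in the 997 tumor-marker cells (5.14 CPM), where Elane and Mpo were at 0, with a limit of 1.40 CPM. In tumor-marker cells of tumor 1 Prtn3 was at 22.0 CPM, from 7 UMIs with 4 of them in 1 cell. In those of tumor 2 it was at 4.50 CPM, from 4 UMIs (95% interval 1.23 to 11.5 CPM). A low level without a UMI of Elane or Mpo was therefore seen in this cell class in tumors 2 and 3, while tumor 1 had 1 Mpo UMI there. In tumor 2 the intervals of Elane and Mpo reach 4.15 CPM, so a difference from Prtn3 was not resolved there. Prtn3 overlaps the gene Plppr3 on the opposite strand, and whether reads of that gene were counted for it was not tested.

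Of the specific granule genes, Ltf, Camp and Ngp were high in tumors 1 and 2 and not detected in tumor 3. Ltf, lactoferrin, which binds iron, was at 839, 976 and 0 CPM in gated cells of tumors 1, 2 and 3, against 0.343, 3.06 and 0 CPM in other cells. Camp, the precursor of the antimicrobial peptide cathelicidin, was at 1953, 3999 and 0 CPM against 1.03, 124 and 0 CPM. Ngp, a granule protein of the cathelicidin family, was at 2587, 4055 and 0 CPM against 1.72, 55.8 and 0 CPM. Tumors 1 and 2 were high and tumor 3 had no UMI of any of the 3 genes, so the gated sums overlapped those of other cells. In tumor 3 the 0 counts allow up to 76.0 CPM by counting error. This limit takes UMIs as independent and does not cover the sampling of cells. It therefore cannot be set against the levels of tumors 1 and 2. Those levels rest on 13 gated cells with at least 10 UMIs of the 3 genes together. They were 9 of 254 gated cells in tumor 1 and 4 of 52 in tumor 2, while tumor 3 had 19 gated cells in all. Without these cells Ltf, Camp and Ngp were at 5.73, 2.29 and 24.1 CPM in tumor 1. In tumor 2 they were then at 0, 9.37 and 244 CPM. Whether tumor 3 was lower than tumors 1 and 2 was not tested. A UMI of Ltf was found in 3.94% and 5.77% of gated cells of tumors 1 and 2, one of Camp in 3.94% and 7.69%, and one of Ngp in 8.66% and 26.9%. With 19 gated cells at a median of 2082 UMIs, shares of cells in tumor 3 were not compared with these.

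Lcn2, which binds iron-laden bacterial siderophores, was at 2762, 3404 and 583 CPM in gated cells and at 23.7, 84.5 and 0.386 CPM in other cells. Cd177, a surface glycoprotein stored in specific granule membranes, was at 133, 190 and 25.3 CPM against 6.09, 1.91 and 0.580 CPM. Both were higher in the gate in every tumor, with the lowest gated sum above the highest of the other cells, as held for 7.01% of all genes tested. Tumor 3 was the lowest of the gated sums for each. The Cd177 value of tumor 3 rests on 1 UMI, with an interval from 0.641 to 141 CPM.

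The genes listed as late were higher in the gate in all 3 tumors. Wfdc21, a small secreted protein with a whey acidic protein domain, was at 2115, 3277 and 887 CPM in gated cells and at 5.58, 14.5 and 0.193 CPM in other cells, a gated mean of 2093 ± 1195 CPM (SD, n = 3) against 6.77 ± 7.24 CPM. Retnlg, resistin-like gamma, a secreted protein of neutrophils, was at 4957, 10712 and 1951 CPM in gated cells and at 13.4, 4.59 and 0.773 CPM elsewhere. Tumor 2 was the highest and tumor 3 the lowest gated sum of either gene. Gated sums of both lay above all sums of other cells, as held for 7.01% of all genes tested. By molecules counted, Retnlg was the most abundant member in the gate of every tumor.

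**Figure D1:**
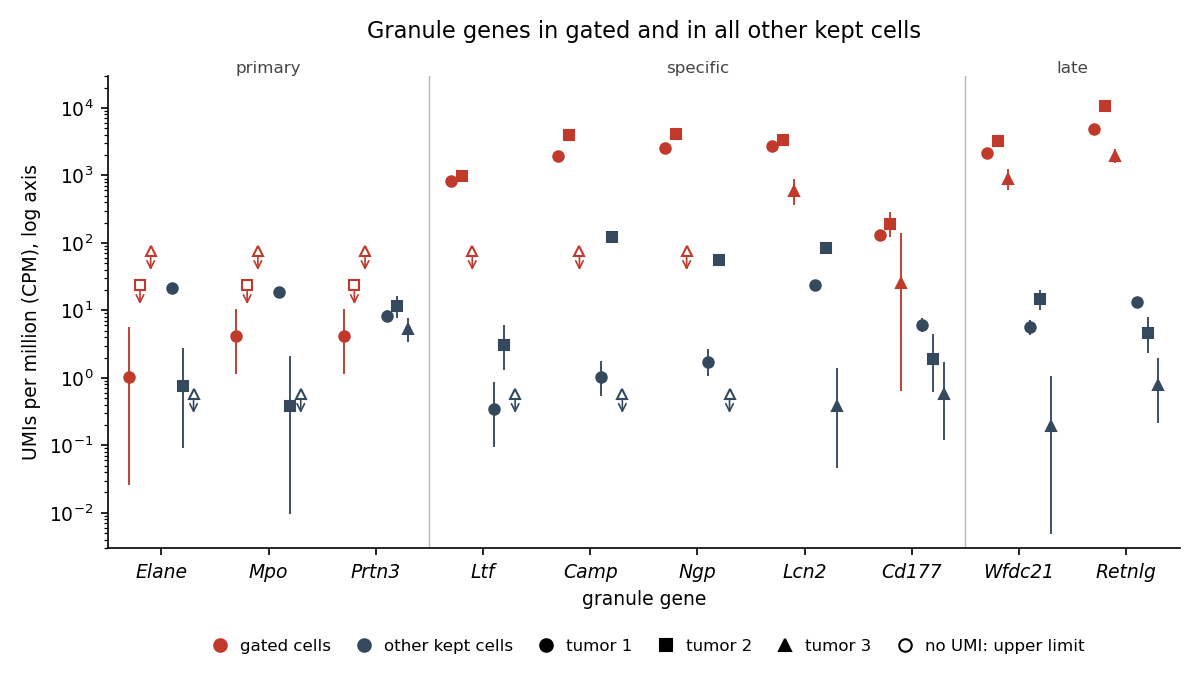
Level of each granule gene in CPM (log axis) in gated cells (red) and all other kept cells (dark blue), 1 symbol per tumor, with 95% Poisson intervals. Open symbols with arrows are the upper limits that counts of 0 allow. Gated cells of tumors 1 and 2 lie above all other cells for Ltf, Camp and Ngp, whereas Lcn2, Cd177, Wfdc21 and Retnlg are higher in the gate of all 3 tumors.

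The comparison of gated with other cells asked which granule genes mark the gate beyond the genes that made it. With edgeR on sums per tumor, 74 of 10160 genes tested passed an adjusted p of 0.05 (0.728%), of which 72 were higher (0.709%) and 2 lower in the gate (0.0197%). Setting Retnlg aside, 5 of 9 members passed the low-count filter, namely Camp, Ngp, Lcn2, Cd177 and Wfdc21. Lcn2, Cd177 and Wfdc21 each passed through the gated sums. Camp and Ngp passed through the gated sums of tumors 1 and 2 with the sum of other cells of tumor 2. In that sum 1 cell held 98.1% of the Camp and 97.9% of the Ngp UMIs. Passing thus rested on high gated sums, so their number and direction support nothing, and Elane, Mpo, Prtn3 and Ltf were not tested here. Wfdc21 was called (log2 fold change 8.62, SE 1.46, adjusted p = 0.0468, higher in 3 of 3 tumors). Cd177 had a log2 fold change of 5.61 (SE 1.11, adjusted p = 0.0755) and Lcn2 one of 6.35 (SE 1.63, adjusted p = 0.179), each higher in 3 of 3 tumors and neither called. Camp, higher in 2 of 3 tumors, had a log2 fold change of 6.05 (SE 2.52, adjusted p = 0.435). Ngp, also higher in 2 of 3 tumors, had one of 7.34 (SE 2.46, adjusted p = 0.319). Gated sums of Lcn2, Cd177 and Wfdc21 lay above all sums of other cells, as did those of 7.01% of all genes tested, while 16.9% had gated sums below all others.

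These calls moved with the fit. An exact sign-flip test of 3 tumors has no value below 0.25. The very small p-values of some fits below thus rest on the fitted model and do not measure the spread between animals. With the tumor as a block, which pairs gated and other cells of the same animal, 1619 genes were called, among them Lcn2 (log2 fold change 7.10, adjusted p = 9.6e-51) and Cd177 (5.46, adjusted p = 3.66e-27) beside Wfdc21 (8.99, adjusted p = 1.62e-91), whereas Camp and Ngp had adjusted p = 0.483 and 0.196. Without tumor 1, edgeR called 881 genes, and without tumor 2 or without tumor 3 it called 0, with 536 and 526 genes at an unadjusted p under 0.05. DESeq2, run on all 3 tumors, called 300. Wfdc21 had adjusted p = 0.337, 0.204 and 0.104 without tumors 1, 2 and 3, and Cd177 2.76e-25, 0.779 and 0.227. Over all alternatives the adjusted p ranged from 1.62e-91 to 0.337 for Wfdc21, from 3.66e-27 to 0.779 for Cd177 and from 9.6e-51 to 0.581 for Lcn2, while their direction held in each. It ranged from 0.199 to 0.710 for Camp and from 0.181 to 0.629 for Ngp, which no alternative called.

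Macrophage-marker cells, the other large myeloid class with 617 cells, were used to ask which granule genes set the gate apart within the myeloid compartment. Lcn2 was at 6.28, 4.03 and 2.35 CPM in macrophage-marker cells of tumors 1, 2 and 3, below all gated sums. Wfdc21 was at 9.52, 0 and 0 CPM there, where the counts of 0 allow 12.1 and 7.04 CPM. Both genes were called higher in the gate, by a log2 of 8.77 for Lcn2 (SE 0.906, adjusted p = 0.000835) and of 8.47 for Wfdc21 (SE 1.03, adjusted p = 0.00213), in 3 of 3 tumors each. They were the 2 members besides Retnlg that passed the low-count filter, again through the gated sums, which set their direction, in a comparison with 331 of 4564 genes called (7.25%), 180 of them higher in the gate (3.94%) and 151 lower (3.31%). Sums without overlap, higher in the gate, were seen for 10.6% of all genes. The median log2 fold change of all genes was -0.19 with the scaling of edgeR and -0.05 with that of DESeq2, a shift of 0.14.

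Without tumor 2 edgeR called 0 genes in that comparison, with 673 at an unadjusted p under 0.05, and Lcn2 and Wfdc21 had adjusted p = 0.0656 and 0.0839. Without tumor 1 it called 565 genes and without tumor 3 it called 37, with Lcn2 and Wfdc21 among them at adjusted p = 0.0164 and 0.0205, and at 0.0067 and 0.0353. The block gave 799 calls and kept both genes (adjusted p = 6.54e-14 and 1.55e-12), and DESeq2 gave 367. Over the alternatives the adjusted p of Lcn2 ranged from 2.73e-23 to 0.0656 and that of Wfdc21 from 9.78e-23 to 0.0839. Again the smallest p-values do not measure the spread between animals.

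Retnlg was also compared where it had not chosen the cells. A gate of at least 3 of the 5 other genes held 252, 47 and 18 cells in tumors 1, 2 and 3. In them Retnlg was at 4970, 10480 and 1980 CPM, against 13.9, 48.4 and 1.16 CPM in the remaining cells. It was higher in the gate in every tumor. The log2 fold change was 8.44 (edgeR, SE 1.47, adjusted p = 0.0451, higher in 3 of 3 tumors), with 86 of 10126 genes called in that fit (0.849%), 83 higher (0.82%) and 3 lower (0.0296%). It passed the low-count filter only with its gated sums, so the direction supports nothing, and in the fit without that filter the log2 fold change was 8.31 (adjusted p = 0.00683). It was no longer called without tumor 1 (adjusted p = 0.368) or without tumor 3 (0.129) and was called without tumor 2 (1.95e-06) and with the tumor as a block (7.79e-120), the last and the 0.368 being the ends of the range over its alternatives. The smallest of these p-values do not measure the spread between animals.

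Among primary and specific genes alone, the specific genes held more UMIs in the gate of every tumor. The gate rule bears on this share, since it left out all 3 kept cells with at least 10 primary UMIs. The share thus holds for gated cells only and is no measure of the tumors as a whole. Of the UMIs of the 8 primary and specific genes, the primary genes held 9 of 8043 in tumor 1, a share of 0.112% (95% exact interval 0.0512% to 0.212%). In tumor 2 they held 0 of 1591, which allows up to 0.189%, and in tumor 3 0 of 24, which allows up to 12.5%. The limit of tumor 3 is too wide to compare. Over the 3 tumors the share was 0.0932%, and no test across tumors was made, since an exact sign-flip test of 3 tumors has no value below 0.25. Without tumor 1 the share was 0. Left without the 13 gated cells richest in Ltf, Camp and Ngp, a group chosen after seeing the data, the share of tumor 1 was 0.943%, with 8 primary and 840 specific UMIs. Intervals and limits given here cover counting error only.

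How widely a gene was spread set the members apart. Wfdc21 had a UMI in 155 of 254, 46 of 52 and 8 of 19 gated cells of tumors 1, 2 and 3, and Lcn2 in 107, 35 and 6. After thinning to 500 UMIs a cell, Wfdc21 was found in 43.3%, 53.8% and 31.6% of gated cells and in 0.301%, 0.0855% and 0.0401% of other cells, and Lcn2 in 24.8%, 36.5% and 21.1% against 0.723%, 0.257% and 0%. Both spread over a large part of the gate in each tumor, far above the other cells. Retnlg, thinned, was in 37.4%, 76.9% and 31.6% of gated cells. Camp was in only 2.36%, 7.69% and 0% of thinned gated cells, and Ltf in 1.97%, 5.77% and 0%. Camp and Ltf were thus confined to few gated cells. In B cell-marker cells of tumor 1, at a median depth of 4390 UMIs, thinned shares were 0% for Ltf, Camp, Ngp, Lcn2, Cd177 and Wfdc21.

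**Figure D2:**
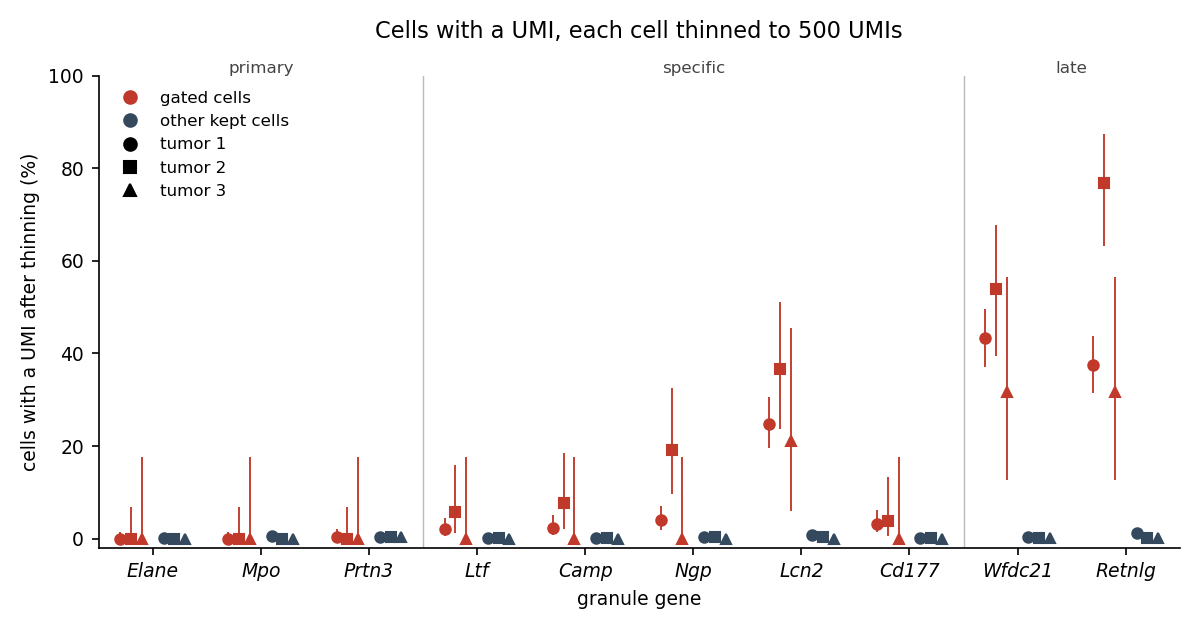
Share of cells with a UMI of each granule gene after every cell was thinned to 500 UMIs, in gated (red) and other kept cells (dark blue), 1 symbol per tumor with 95% exact binomial intervals. Wfdc21, Retnlg and Lcn2 reach at least 21.1% of gated cells in each tumor, while Ltf and Camp stay at or below 7.69%.

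Counted over all tumors, 6 of 325 gated cells held 90% of the Ltf UMIs, 6 held 90% of those of Camp and 7 those of Ngp. For Cd177 it took 23 cells, for Lcn2 51, for Retnlg 65 and for Wfdc21 105. Retnlg is a gate gene, so the rule raises its spread, and in tumor 3 alone it took 5 cells for Lcn2, 4 for Retnlg and 7 for Wfdc21. No member at all was detected in 62 gated cells, 51 of them in tumor 1, 1 in tumor 2 and 10 in tumor 3. At the other end, 7 members were detected in 8 cells and 8 members in 1.

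The 13 gated cells with at least 10 UMIs of Ltf, Camp and Ngp together, 9 in tumor 1, 4 in tumor 2 and 0 in tumor 3, were examined after these values had been seen and are described without a test. They held 99.5% of the Ltf, 99.9% of the Camp and 98.4% of the Ngp UMIs of the gate, with 10.4% of all its UMIs. They also held 68.0% of its Lcn2, 74.0% of its Cd177, 41.1% of its Wfdc21 and 35.2% of its Retnlg UMIs. The cells were chosen by Ltf, Camp and Ngp, which set the shares of these 3 genes. Elane and Prtn3 were at 0 in all 13, and Mpo gave 1 UMI in 1 of them. S100a8, Mmp9 and Lyz2 were detected in each of the 13, Chil3 in 11 and Cebpe in 7.

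Within this small group Camp and Retnlg did not run in parallel. The gated cell with the most Camp in tumor 1 held 624 UMIs of Camp and 9 of Retnlg. In tumor 2 the corresponding cell held 402 of Camp and 1 of Retnlg. At the other end, a cell of tumor 1 held 7 of Camp and 483 of Retnlg. These cells had 14777, 7927 and 9943 UMIs in all. Mmp8, neutrophil collagenase, gave 1 and 0 UMIs in the first pair of cells and 48 in the last. It did not simply follow Retnlg, since its highest count, 81, was in a cell with 228 of Camp and 107 of Retnlg. A cell with 344 of Retnlg held 15 of Mmp8. Wfdc21 gave 246 and 80 UMIs in the first pair and 73 in the last. In these cells Wfdc21 thus did not follow Retnlg, and its label as a late gene is that of the list only. The extremes of Camp and Retnlg thus lay in different cells. In between, a cell of tumor 1 held 597 of Camp and 71 of Retnlg, and another 100 of Camp and 344 of Retnlg.

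**Figure D3:**
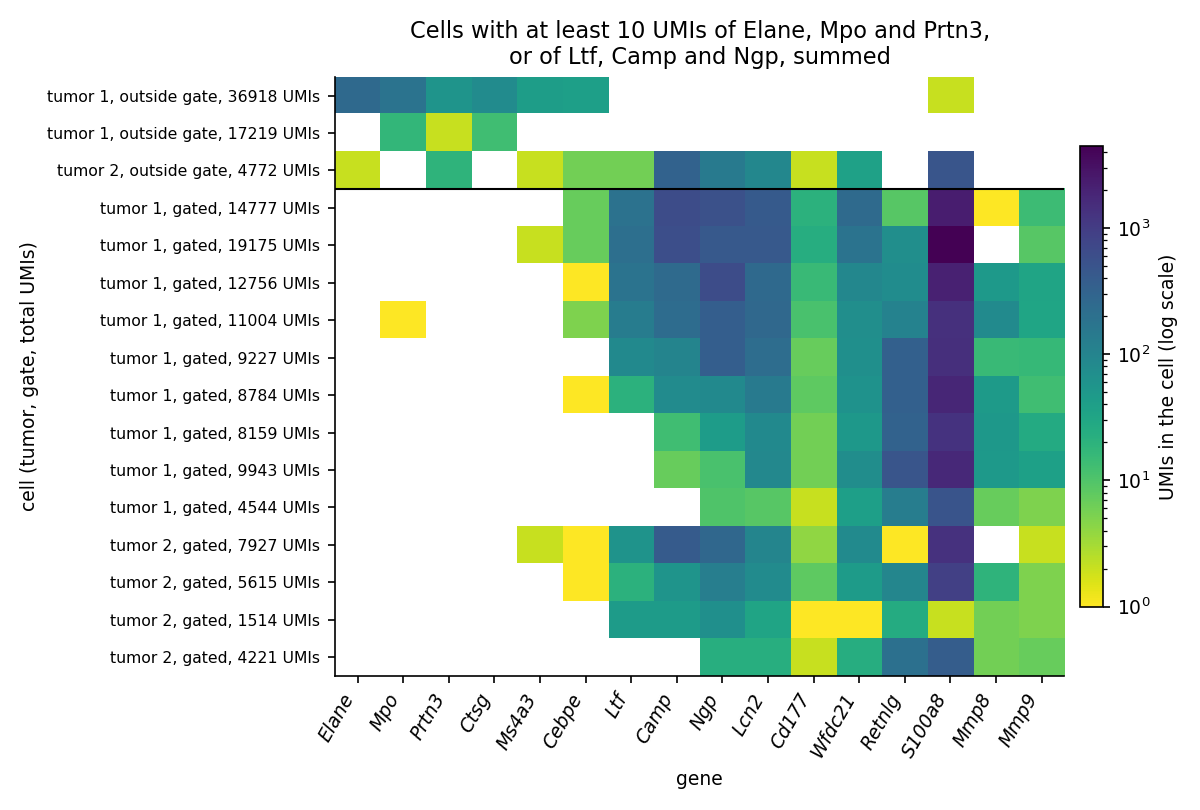
UMIs of granule and related genes (color, log scale, white for 0) in each of 16 cells with at least 10 UMIs of Elane, Mpo and Prtn3 summed or of Ltf, Camp and Ngp summed. The 3 cells above the line lie outside the gate and hold primary genes, 1 of them with Camp and Ngp as well, and the 13 gated cells below it hold Ltf, Camp or Ngp with almost no primary UMIs.

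Members were also compared cell by cell within the gate. Ltf and Camp correlated at 0.910 in tumor 1 and 0.968 in tumor 2 (Pearson's r of log UMIs per 10000, 254 and 52 cells that share a library). Camp and Ngp correlated at 0.895 and 0.765, and Ltf and Ngp at 0.817 and 0.738. Ltf, Camp and Ngp thus had high r in both tumors, which rests on few cells, since Ltf was found in 10 and 3 gated cells and Camp in 10 and 4. Wfdc21 and Retnlg correlated at 0.602 and 0.329, and Camp and Retnlg at 0.237 and 0.0126. Among 2026 genes compared over 306 gated cells of tumors 1 and 2, the pattern of Ngp was most like that of Cd177, Lcn2 and Ifitm6 (mean r 0.581, 0.571 and 0.531). Ngp itself was not ranked as a partner of other members, though its r with Lcn2 and Cd177 was above those that follow. Among the genes ranked, Lcn2 was most like Mmp8, Wfdc21 and Retnlg (0.505, 0.478 and 0.457). Cd177 was most like Syne1, Ifitm6 and Lcn2 (0.431, 0.408 and 0.378). Wfdc21 stood closest to S100a8, S100a9 and S100a11 (0.657, 0.603 and 0.521), and Retnlg to Mmp8, Wfdc21 and Lcn2 (0.615, 0.465 and 0.457). Cells are not independent replicates, and depth is shared by all genes of a cell. Ltf and Camp were found in too few cells to be compared in this way.

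Detection was nested as well. All 14 gated cells with Camp also had Lcn2, Wfdc21 and Retnlg, and 12 of them had Ngp. Without Camp, 43.1% of gated cells had Lcn2, 62.7% Wfdc21 and 55.3% Retnlg. Depth moves with this, since the 9 cells rich in Ltf, Camp and Ngp of tumor 1 had a median of 9943 UMIs and its other gated cells 2650, and its part was not tested. Of the 36 cells with Ngp, 34 had Lcn2 and 33 had Wfdc21. Of the 148 cells with Lcn2, 126 had Wfdc21 (85.1%), against 83 of the 177 cells without it (46.9%). The reverse did not hold, since 14 of the 209 cells with Wfdc21 had Camp. Ltf was less nested, as 10 of its 13 cells had Lcn2 and 10 had Wfdc21.

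Across cell classes, ordered by the mean over tumors with at least 10 cells of a class, the gate ranked highest for each specific gene and for Wfdc21. It also ranked highest for Retnlg, but as a gate gene Retnlg helped to choose these cells, so its rank supports nothing. The 2 eosinophil-marker cells, too few to be ranked, held 35 UMIs of Retnlg (11897 CPM), against 5491 CPM over all gated cells. For Wfdc21 the gated mean of 2093 ± 1195 CPM was followed by unnamed cells at 12.9 ± 17.0 CPM (SD, n = 3), without overlap. In tumor 2 a single unnamed cell held 36 of the 38 Wfdc21 UMIs outside the gate. For Cd177 the gated mean of 116 ± 83.8 CPM was followed by macrophage-marker cells at 8.30 ± 3.74 CPM, again without overlap. For Lcn2 the gated mean of 2250 ± 1479 CPM was followed by fibroblast-marker cells at 366 ± 503 CPM, and these ranges did overlap. The overlap rests on few cells. In fibroblast-marker cells Lcn2 gave 216 UMIs in 12 of 78 cells of tumor 1, of which 156 were in 1 cell, and 120 UMIs in 2 of 11 cells of tumor 2, of which 116 were in 1 cell. For Ltf, Camp and Ngp the gated means of 605 ± 528, 1984 ± 2000 and 2214 ± 2053 CPM overlapped the next class because tumor 3 was at 0. For Elane, Mpo and Prtn3 the unnamed cells ranked highest, at 59.9 ± 102, 43.9 ± 76.0 and 24.6 ± 20.1 CPM. In tumor 1 a single cell held 250 of the 250 Elane and 180 of the 185 Mpo UMIs of unnamed cells. For Prtn3 a single cell held 57 of 65 UMIs of unnamed cells in tumor 1 and 19 of 25 in tumor 2, so these ranks rest on single cells. For Elane and Mpo the gated range overlapped that of unnamed cells. For Prtn3 the limits of the gated 0 counts, 23.8 and 76.0 CPM, leave no detectable difference.

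A low signal of Cd177 was seen in another class. It had a UMI in 42 of 488 macrophage-marker cells of tumor 1 (8.61%, median depth 8955 UMIs), against 1 of 207 B cell-marker cells (0.483%, median depth 4390 UMIs). After thinning these shares were 0.410% and 0%. Its level in the same cells was 12.2 CPM (60 UMIs, 9.27 to 15.6) in macrophage-marker and 0.993 CPM (1 UMI, 0.0252 to 5.53) in B cell-marker cells, and the difference was not tested. In gated cells of tumor 1 the thinned share of Cd177 was 3.15%.

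Other granule genes were read from lists by granule type. Among further primary granule genes 4 of 8 were tested against other cells and 0 were called by edgeR (1 higher and 1 lower with the tumor as a block), with a median log2 fold change of 0.01 against -0.38 for all genes, of which 0.709% were called higher. Among further specific granule genes 8 of 10 were tested and 1 rose, with a list median of 3.06. It was Ceacam10, a secreted cell adhesion protein, at 22.7, 47.6 and 25.3 CPM in the gate against 0.172, 0 and 0 CPM. Its log2 fold change was 8.12 (edgeR, SE 0.921, adjusted p = 0.00944, 3 of 3 tumors). The gated value of tumor 3 rests on 1 UMI, and other cells held 2 UMIs in all. With the tumor as a block, which called 10.6% of all genes higher and 5.35% lower, 7 of the 8 specific genes tested were called higher. Among genes of gelatinase granules 5 of 6 were tested and 2 rose (5 with the block), with a median of 2.53. Mmp9, gelatinase B, was at 812, 659 and 709 CPM against 2.14, 0.382 and 2.32 CPM (8.89, SE 0.9, adjusted p = 0.00739). Adam8, a membrane protease, was at 559, 365 and 203 CPM against 19.3, 8.41 and 5.22 CPM (5.38, SE 0.903, adjusted p = 0.046). Both were higher in 3 of 3 tumors, and unlike Ltf, Camp and Ngp they were detected in tumor 3. Without tumor 2 none of the 3 was called (adjusted p = 0.118 for Ceacam10, 0.0922 for Mmp9 and 0.651 for Adam8), nor without tumor 3 (0.165, 0.162 and 0.308).

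Inhibitors of the granule proteases gave 2 of 7 tested that rose (4 higher and 1 lower with the tumor as a block), with a median log2 fold change of 1.28. Stfa2l1, a stefin that inhibits cysteine proteases, was at 433, 611 and 456 CPM against 0.343, 0.765 and 0.193 CPM (log2 fold change 10.39, SE 0.857, adjusted p = 0.00278, 3 of 3 tumors). Stfa2, a stefin of the same cluster, was at 17.5, 47.6 and 50.7 CPM in the gate, from 25 UMIs, and at 0 elsewhere, where the counts of 0 allow 0.257, 1.15 and 0.580 CPM (adjusted p = 0.0135). Stfa2l1 and Stfa2, like Ceacam10, Mmp9 and Adam8, were so low in other cells that they passed the low-count filter through their gated sums, so their direction supports nothing. Without tumor 2 or tumor 3 neither was called, at adjusted p = 0.0791 and 0.104 for Stfa2l1 and 0.0922 and 0.183 for Stfa2. None of 6 surface receptors of mature neutrophils, 6 transcription factors of granulocyte development, 8 genes of granule traffic or 8 cell cycle genes tested was called by edgeR, with medians of 3.68, 1.42, 1.77 and -0.90. These counts depend on the fit. With the tumor as a block, which called 10.6% of all genes higher and 5.35% lower, 6 of the 6 surface receptors, 3 of the transcription factors and 4 of the traffic genes were called higher, and 2 of the cell cycle genes lower. Gated sums of the 6 surface receptors lay above all sums of other cells, as held for 7.01% of all genes. A published signature of 32 genes for neutrophil-like suppressor cells, which the study plotted and which includes members and is thus no independent evidence, had 5 of 28 tested that rose, and 15 with the block. Of 8 macrophage markers 5 fell with the block, and without it C1qa alone, a complement component, fell (log2 fold change -4.78, SE 0.746, adjusted p = 0.0359), and was not called without tumor 2 (0.622) or tumor 3 (0.342). With a gate of at least 2 genes its direction turned (0.38, adjusted p = 0.928).

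Against macrophage-marker cells, where the median of all genes was -0.19, 3.94% of all genes were called higher in the gate and 3.31% lower, against 0.709% and 0.0197% in the comparison with all other cells. Of 4 further primary granule genes tested, Srgn, the proteoglycan core of granules, rose at 7003, 4078 and 2812 CPM against 1608, 539 and 573 CPM (log2 fold change 2.31, SE 0.576, adjusted p = 0.0445, 3 of 3 tumors). Ctsc, which activates granule serine proteases, fell at 125, 0 and 0 CPM against 583, 1304 and 1007 CPM (-3.98, SE 1.02, adjusted p = 0.0499). Of 7 further specific granule genes 2 rose, Mmp8 (5.05, adjusted p = 0.0216) and Cd24a, a surface glycoprotein (2.78, adjusted p = 0.0328), and of 5 gelatinase granule genes Mmp9 (7.57, adjusted p = 0.00445) and Adam8 (3.11, adjusted p = 0.0167) rose. Of 6 surface receptors Trem1 (5.14, adjusted p = 0.00347) and Cd14 (2.90, adjusted p = 0.0155) rose, and of 6 genes of granule traffic Lyst, a regulator of lysosome-related organelles, rose (3.05, adjusted p = 0.0216). Among 5 protease inhibitors Stfa2l1 (10.69, adjusted p = 0.000496) and Serpinb1a, an inhibitor of elastase, rose (3.02, adjusted p = 0.0083), while Serpinb6a fell (-2.80, adjusted p = 0.0335). Mmp8, Cd24a, Mmp9, Trem1, Lyst, Stfa2l1 and Serpinb1a passed the low-count filter through their gated sums, and Ctsc and Serpinb6a through those of macrophage-marker cells, so the direction of these genes supports nothing. Each gene named here moved the same way in 3 of 3 tumors, and Ctsc was not called with the tumor as a block (adjusted p = 0.0905). Without tumor 2 all lost their call, at adjusted p = 0.471 for Srgn, 0.503 for Ctsc, 0.312 for Mmp8, 0.379 for Cd24a, 0.128 for Mmp9, 0.204 for Adam8, 0.141 for Trem1, 0.269 for Cd14, 0.304 for Lyst, 0.0566 for Stfa2l1, 0.166 for Serpinb1a and 0.584 for Serpinb6a. Without tumor 3 Mmp9 and Stfa2l1 stayed called, and the adjusted p was 0.272 for Srgn, 0.453 for Ctsc, 0.0853 for Mmp8, 0.145 for Cd24a, 0.169 for Adam8, 0.0750 for Trem1, 0.0957 for Cd14, 0.247 for Lyst, 0.0973 for Serpinb1a and 0.361 for Serpinb6a. None of 5 transcription factors or 8 cell cycle genes was called by edgeR, whereas with the tumor as a block 2 of the transcription factors were called higher and 1 lower, and of 22 genes of the suppressor cell signature 7 rose. Other list counts moved with the block too, which called 7.56% of all genes higher and 9.95% lower. It called 4 of the further specific genes higher and 2 lower, 2 of the gelatinase genes higher and 6 of the surface receptors higher. It further called 3 of the traffic genes higher, 3 of the inhibitors higher and 2 lower, and 10 of the signature higher and 3 lower.

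Some of the members lie near each other in the genome. On the mouse build GRCm38, with gene ends from GENCODE, Prtn3 (chr10:79874476-79883174) and Elane (chr10:79886247-79888215) are 3072 bases apart on the same strand with 0 protein-coding genes between them. Camp (chr9:109847379-109849617), Ngp (chr9:110419747-110423012) and Ltf (chr9:111019271-111042767) follow each other on chromosome 9, with 570 kb and 8 protein-coding genes between Camp and Ngp and 596 kb and 20 such genes between Ngp and Ltf. Promoter windows from RefSeq (build GRCm38.p6, 250 bases before to 50 after the start) were found for 9 of 10 members, all but Wfdc21. They were searched on both strands for GAGGAA, the core that PU.1 binds, and TTGCNNAA, letters bound by C/EBP proteins, and on the sense strand for TATAAA, the TATA box. The letters GAGGAA were in 6 of the 9 windows and in 28.3% of all 32851 promoters, TTGCNNAA in 4 of 9 and in 10.8%, and TATAAA in 1 of 9 and in 8.32%. The windows of the 3 specific genes found in the same few cells and of the neighboring pair of primary genes are printed below 5′ to 3′, with matches in capitals, none of which shared a base with another. They are Ltf (chr9:111019042-111019341, plus strand), Camp (chr9:109849407-109849706, minus strand), Ngp (chr9:110419558-110419857, plus strand), Elane (chr10:79886062-79886361, plus strand) and Prtn3 (chr10:79879417-79879716, plus strand). Starts in RefSeq and GENCODE differ, and the window of Prtn3 lies inside the gene as given by GENCODE. Ltf holds 1 match of GAGGAA and 1 of TTGCNNAA, Ngp 2 of TTGCNNAA, Elane and Prtn3 1 each of GAGGAA, and the letters searched are not in the window of Camp.
Ltf: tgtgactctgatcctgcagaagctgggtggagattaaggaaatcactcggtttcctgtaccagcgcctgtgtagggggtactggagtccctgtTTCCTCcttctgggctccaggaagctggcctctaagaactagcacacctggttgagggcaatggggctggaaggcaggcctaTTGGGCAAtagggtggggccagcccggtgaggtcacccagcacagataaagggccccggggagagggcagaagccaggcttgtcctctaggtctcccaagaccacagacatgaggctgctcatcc
Camp: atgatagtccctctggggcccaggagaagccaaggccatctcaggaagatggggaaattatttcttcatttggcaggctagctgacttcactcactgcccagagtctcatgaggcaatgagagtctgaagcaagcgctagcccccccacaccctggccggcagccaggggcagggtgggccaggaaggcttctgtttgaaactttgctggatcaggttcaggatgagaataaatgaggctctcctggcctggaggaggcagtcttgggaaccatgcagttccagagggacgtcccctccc
Ngp: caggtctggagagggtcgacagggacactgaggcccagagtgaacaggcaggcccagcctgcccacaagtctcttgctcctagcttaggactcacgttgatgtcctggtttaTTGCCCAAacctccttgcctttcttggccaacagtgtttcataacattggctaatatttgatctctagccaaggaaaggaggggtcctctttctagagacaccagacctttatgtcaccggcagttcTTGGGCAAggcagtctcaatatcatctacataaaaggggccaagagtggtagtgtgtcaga
Elane: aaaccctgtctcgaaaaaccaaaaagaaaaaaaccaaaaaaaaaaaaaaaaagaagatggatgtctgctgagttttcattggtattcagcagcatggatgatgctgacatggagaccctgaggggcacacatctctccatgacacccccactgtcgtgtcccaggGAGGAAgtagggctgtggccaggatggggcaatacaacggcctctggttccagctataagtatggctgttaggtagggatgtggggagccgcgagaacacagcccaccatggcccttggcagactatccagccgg
Prtn3: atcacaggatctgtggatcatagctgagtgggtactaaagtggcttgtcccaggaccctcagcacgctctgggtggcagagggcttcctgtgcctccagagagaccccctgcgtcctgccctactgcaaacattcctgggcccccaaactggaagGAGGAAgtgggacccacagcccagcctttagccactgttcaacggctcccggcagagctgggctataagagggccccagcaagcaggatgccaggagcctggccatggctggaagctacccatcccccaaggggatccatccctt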

How the data were processed

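Single-cell RNA of 3 whole tumors was used. The authors deposited raw UMI counts per gene and barcode, and normalized values in the unit of the natural log (ln) (1 + corrected count) for the cells that passed their filters for ambient RNA, doublets and quality. The labels name Cell Ranger 3.1.0, Seurat 3.1.5 and the build mm10. Cells listed in the normalized values were kept, which left out 1343, 3106 and 3523 barcodes, and raw counts of kept cells were used throughout. The normalized values list 9, 8 and 4 of the 10 members in tumors 1, 2 and 3, and Elane in none. The members and gene lists were chosen with earlier results of these data known.

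Counts were summed per tumor over gated cells, macrophage-marker cells (at least 3 of 8 markers, more than of any other type) and all other kept cells. Sums of 970878, 126031 and 39471 UMIs in the gate limit precision. Tests used edgeR 4.0.16 in R 4.3.3 (filterByExpr, TMM, robust quasi-likelihood) with Benjamini-Hochberg adjustment over all genes tested and a threshold of 0.05. Intervals (95%) were exact binomial or Poisson from scipy 1.17.1 in Python 3.11.15, and a count of 0 allows 3 counts. Gated and other cells of a tumor come from the same animal. Their deviations from the group means correlated at 0.660, 0.327 and 0.299 in tumors 1, 2 and 3 over 10160 genes, and for macrophage-marker cells at 0.573, 0.212 and 0.329 over 4564. Between different tumors they correlated at -0.621 to 0.308 and, for macrophage-marker cells, at -0.460 to 0.187. Both upper ends were gated cells of tumor 2 with tumor 3, so the values set tumor 1 apart more than they show pairing in tumors 2 and 3. The tumor as a block was an alternative. Others were DESeq2 1.42.0, no low-count filter, each tumor left out, corrected counts, gates of at least 2 or 4 genes or without Retnlg, thinning to 500 UMIs and leaving out cells of mixed markers or, chosen after seeing the data, cells rich in Ltf, Camp and Ngp. Tests were tried on simulated data. Named genes are the members, the gate genes, up to 4 genes of each list called without overlap by largest change, the most abundant marker of other types, and the 3 genes most correlated with a member. Positions come from GENCODE M21.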

Additional observations from a re-analysis of the deposited data

Results flagged for a closer look

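Barcodes that the authors left out of the kept cells held granule UMIs above the 3 counts that a count of 0 allows, in data that the comparisons did not use. Of these barcodes 12 passed the gate, 10 in tumor 1 and 1 each in tumors 2 and 3. These 12 held 80 UMIs of Retnlg, 26 of Lcn2 and 12 of Wfdc21. The other 7960 held 129 UMIs of Prtn3 in 114 barcodes, 76 of Lcn2 in 32, 43 of Retnlg in 38, 28 of Wfdc21 in 23 and 15 of Ngp in 14. They also held 13 UMIs of Mpo, 9 of Camp and 8 of Elane. Of the Retnlg UMIs in gated barcodes 71 came from 1 barcode of tumor 2, and in the 10 barcodes of tumor 1 Lcn2 had 12 UMIs, Retnlg 9 and Wfdc21 2. Prtn3 led outside the gate. Of the Prtn3 UMIs 53 lay in tumor-marker barcodes of tumor 2 and 35 in those of tumor 3, where Elane and Mpo were at 0. The 10 gated barcodes of tumor 1 had a median of 61934.5 UMIs, against 2696.5 in kept gated cells, and a median of 3.90% mitochondrial UMIs. Those of tumors 2 and 3 had 26.4% and 31.9% mitochondrial UMIs. The other barcodes left out had medians of 924, 5349 and 3703 UMIs and of 28.0%, 35.0% and 37.7% mitochondrial UMIs in tumors 1, 2 and 3. The part of depth and of mitochondrial RNA in these counts was not tested.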

How the results depend on the processing

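Against other cells edgeR called 74 genes. The count was 174 without the low-count filter, 1619 with the tumor as a block, 300 with DESeq2, 37 with a gate of at least 2 genes, 26 after thinning, 0 to 881 on leaving out 1 tumor, and 0 with corrected counts, where 1142 genes had an unadjusted p under 0.05. It stayed within 1.5 times under 4 further settings. Against macrophage-marker cells 331 were called, and 942, 799, 100 and 117 without the filter, with the block, with at least 2 genes and after thinning. It was 518 with at least 4 gate genes, 199 with a gate without Retnlg, 184 without the cells rich in Ltf, Camp and Ngp, and 0 to 565 without 1 tumor. Retnlg by the gate without it, at a log2 fold change of 8.44, was no longer called with corrected counts (7.73), at least 2 genes (9.52) or without cells of mixed markers (8.68), and lay at 8.20 to 9.18 without 1 tumor. The primary share of granule UMIs, 0.0932%, was 0.180% with at least 2 genes, 0.163% after thinning, 0.723% without the rich cells and 0% to 0.112% without 1 tumor. The 14 single genes named against other cells kept direction and side of the threshold in 117 of 166 instances, lost the call in 42, gained it in 6 and reversed in 1, C1qa at 0.38 with at least 2 genes. The 21 against macrophage-marker cells did so in 197 of 257 and lost the call in 60. Without the filter Ltf was called against other cells (9.65, adjusted p = 0.0323) and Elane, Mpo and Prtn3 were not (-3.01, -0.99 and -1.06). Causes of these changes were not tested. Depth limits tumor 3 most, with 19 gated cells.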
